A study of Mus musculus with 6 samples.

Results

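The transcripts of 10 genes that mark the ovarian surface, the mesothelium and the Mullerian duct were followed across a mouse ovarian cancer line with and without MNRR1. The genes were Wt1, Nr2f2, Gata4, Gata6, Lhx9, Emx2, Wnt4, Msln, Upk3b and Amhr2. They were taken by name from the count table, where each of the 10 matched 1 of 49315 Ensembl genes through the GENCODE M21 annotation of GRCm38. The cells were of the line TKO (triple knockout), labelled as ovarian cancer cells of the mouse ovary. The 3 wild-type (WT) libraries came from TKO cells with MNRR1 intact, and the 3 knockout (KO) libraries from TKO cells lacking MNRR1, the product of Chchd2. Both genotypes carry the knockouts that give the line its name, and the labels do not say which genes those are. The descriptions of the KO samples name a single clone, so a difference of the clone and an effect of the missing protein cannot be told apart, and the labels leave it unsaid whether replicates were grown apart, so p-values reflect only how far these libraries spread, which may be technical.

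The ovarian surface is a single layer of coelomic epithelium, a mesothelium that covers the gonad and is continuous with the lining of the body cavity. In the embryo the same layer thickens into the gonadal primordium, and close to it an infolding of coelomic epithelium forms the Mullerian duct, which becomes the oviduct and uterus. WT1, GATA4, GATA6, LHX9, EMX2 and NR2F2 are transcription factors of these tissues, WNT4 is a secreted signal that the duct needs in order to form, and AMHR2 is the receptor through which anti-Mullerian hormone makes the duct regress in males. Mesothelin (Msln) and uroplakin 3B (Upk3b) are membrane proteins of mature mesothelium.

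Total counts ran from 33226463 to 40983999 per library. Chchd2 stood at 17.1 ± 0.499 CPM (a gene's count relative to the library total, scaled with TMM, a trimmed mean of log ratios between libraries) in KO against 352 ± 13.7 CPM in WT (SD, 3 libraries each), in the direction the labels give. Libraries of 1 genotype correlated across genes at 0.990 or more in log CPM, and libraries of different genotypes at 0.948 to 0.967. Where a library holds 0 counts of a gene, up to 3 remain possible (95% level), or 0.0737 to 0.0886 CPM, which covers counting error only.

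Upk3b, Wt1, Msln and Gata6 were abundant in both genotypes, Amhr2 and Wnt4 were low, Lhx9 was close to absent and Emx2 was absent or nearly so. Mesothelin and Gata4 were 2-fold or more lower in KO, as was the trace transcript Lhx9, Upk3b, Wnt4 and Gata6 were lower by less, and Wt1, Nr2f2 and Amhr2 did not pass the test. Of the 10 genes, 9 passed the filter on low counts, and 6 of those 9 were lower and 0 higher in KO at an adjusted p under 0.05 by the quasi-likelihood test of edgeR with Benjamini-Hochberg adjustment over all 16033 genes tested. Over all tested genes, 55.7% were called, 27.8% as lower and 27.8% as higher, so a call in either direction was common in this comparison. Calls of at least 2-fold were less common, at 14.1% of all tested genes, and 3 of the 9 identity genes were among them, all lower, which holds for 6.01% of all tested genes. The median log2 change was -0.50 over the 9 genes and 0.01 over all tested genes. Lhx9 passed the filter through its WT counts alone, so a fall was bound to appear in it. Without Lhx9, 5 of 8 genes were called lower, 2 of them by 2-fold or more, and the median log2 change was -0.35.

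**Figure D1:**
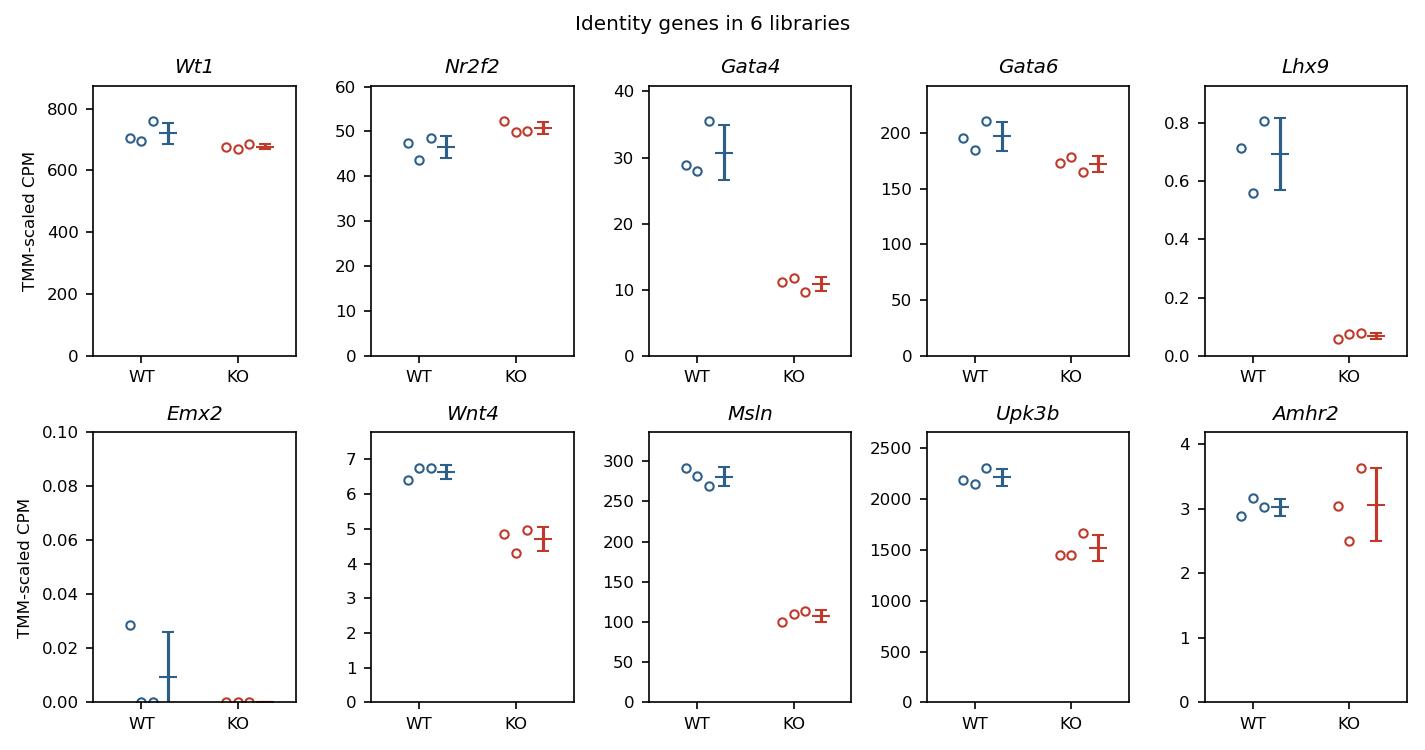
TMM-scaled CPM (vertical axis, from 0) of the 10 identity genes in the 3 WT and 3 KO libraries, with open circles for libraries and bars for mean and SD. Msln, Gata4 and Lhx9 show the widest separation, Amhr2 overlaps between genotypes, and Emx2 has a single count in 1 WT library.

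Levels of different genes were set side by side after division by exon length (FPKM, here TMM-scaled CPM per kilobase of merged exon). In WT libraries the order was Upk3b at 627 ± 23.6 FPKM, Wt1 at 116 ± 5.58, Msln at 91.6 ± 3.81, Gata6 at 30.3 ± 1.97, Gata4 at 7.88 ± 1.06, Nr2f2 at 5.39 ± 0.289, Wnt4 at 1.58 ± 0.0479, Amhr2 at 1.51 ± 0.0672, Lhx9 at 0.0731 ± 0.0131 and Emx2 at 0.00318 ± 0.00550 FPKM (SD, n = 3). Upk3b thus ranked 35th of the 16033 tested genes by this level in WT and 45th in KO libraries. Wnt4 and Amhr2 were the only neighbours in the WT order whose libraries overlapped. In KO libraries Gata4, at 2.79 ± 0.276 FPKM, stood below Nr2f2, at 5.89 ± 0.153 FPKM, and Wnt4, at 1.12 ± 0.0853 FPKM, below Amhr2, at 1.53 ± 0.282 FPKM. The means of both pairs were thus in the opposite order to WT.

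RefSeq promoter sequences (GRCm38.p6) were at hand for 6 of the 10 genes. Those of Lhx9, Upk3b and Amhr2 are shown because each holds the core GATAA that GATA factors recognise. Lhx9 and Upk3b were lower in KO and Amhr2 was not called, and any role of the motif was not tested. The 250 bases before the transcription start are given 5′ to 3′ on the gene's strand, and capitals mark GATAA, which reads as TTATC where it lies on the other strand, and likewise AGGTCA, the core bound by nuclear receptors such as NR2F2.
Lhx9 (chr1:138842445-138842694, minus strand): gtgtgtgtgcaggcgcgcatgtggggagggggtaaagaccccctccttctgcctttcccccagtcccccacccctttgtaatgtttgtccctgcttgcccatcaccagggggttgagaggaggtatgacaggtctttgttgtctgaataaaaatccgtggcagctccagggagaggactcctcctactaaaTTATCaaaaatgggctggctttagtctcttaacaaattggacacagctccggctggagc
Upk3b (chr5:136038246-136038495, plus strand): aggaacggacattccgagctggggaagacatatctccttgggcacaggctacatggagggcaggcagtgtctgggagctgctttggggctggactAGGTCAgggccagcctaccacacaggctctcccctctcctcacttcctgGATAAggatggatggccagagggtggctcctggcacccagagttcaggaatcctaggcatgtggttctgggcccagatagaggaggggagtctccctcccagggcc
Amhr2 (chr15:102445117-102445366, plus strand): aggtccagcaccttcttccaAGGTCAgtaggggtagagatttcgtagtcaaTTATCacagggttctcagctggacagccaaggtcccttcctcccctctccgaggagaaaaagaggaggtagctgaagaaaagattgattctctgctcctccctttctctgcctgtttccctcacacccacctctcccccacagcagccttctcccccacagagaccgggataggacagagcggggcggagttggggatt
On both strands, GATAA was in 3 of the 6 promoters and in 22.6% of all 32851 promoters of the table at the same length. It began 59 bases before the RefSeq start used for Lhx9, 106 before that of Upk3b and 199 before that of Amhr2. The Lhx9 window lies inside the gene as annotated for the counts (138825186 to 138848577). The start used there is thus an internal one, downstream of the outermost annotated start. AGGTCA was in 2 of the 6 (Upk3b and Amhr2) and in 14.0% of all. GCGTGGG, a core bound by WT1 and EGR factors, was in 1 of the 6 (Wnt4) and in 4.304% of all, and TAATTA, a homeobox core, was in 0 of the 6 and 4.84% of all. The motifs did not overlap each other, and a match describes these letters only.

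Wt1, the zinc finger factor on which gonad and kidney formation depend, was the most strongly expressed factor of the set. It lies on chromosome 2 (positions 105126529 to 105173616, plus strand, of GRCm38, as are all gene positions here; ENSMUSG00000016458). Its level was 677, 669 and 686 CPM in KO replicates 1 to 3 and 703, 696 and 759 CPM in WT replicates 1 to 3. The genotypes did not overlap, as was the case for 64.0% of all tested genes, but they lay close together. The log2 change of KO over WT was -0.09 (SE 0.05), with an adjusted p of 0.187 (edgeR, quasi-likelihood), and it turned to 0.03 when libraries were scaled by their totals.

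Gata4 and Gata6 encode closely related zinc finger factors, and both act in the early gonad. Gata4 (chromosome 14, 63198922 to 63271692, minus strand; ENSMUSG00000021944) was at 11.2, 11.7 and 9.67 CPM in KO against 28.8, 27.95 and 35.5 CPM in WT libraries. Every KO library was under the lowest WT library, and the log2 change was -1.50 (SE 0.11; adjusted p = 2.03e-06, edgeR). In these bulk libraries, fewer cells that express a gene and less RNA per cell cannot be told apart. Gata6 (chromosome 18, 11052064 to 11085635, plus strand; ENSMUSG00000005836) was at 173, 179 and 165 CPM in KO against 196, 185 and 211 CPM in WT libraries. The ranges came close without overlapping, and the log2 change was -0.20 (SE 0.06; adjusted p = 0.0159, edgeR). That call was lost with upper-quartile scaling (adjusted p = 0.0659), with library totals (0.278), without KO replicate 1 (0.0561) and without WT replicate 3 (0.0788), in a range of 0.00155 to 0.278 over all settings.

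Taken as a ratio inside each library, which no scaling between libraries can alter, Gata4 was at 10.8%, 10.9% and 9.78% of the level of Gata6 per exon length in KO libraries and at 24.5%, 25.2% and 28.1% in WT libraries. The pair therefore did not change in proportion. Of the other GATA genes, Gata5 was at 0.0286, 0.172 and 0.103 CPM in KO against 2.43, 2.83 and 2.85 CPM in WT libraries, or 12 counts against 294 in all, a ratio of 25.8 (95% counting interval 14.6 to 50.6) of WT over KO. Its fitted log2 change was -4.65 (SE 0.35; adjusted p = 2.57e-06, edgeR) and moved to -5.25 without KO replicate 2. As with Lhx9, Gata5 passed the filter through its WT counts alone, so a fall was bound to appear in it. Gata2, best known in blood and endothelial cells, was at 14.7 ± 0.576 CPM in KO against 12.5 ± 0.956 CPM in WT libraries, with a log2 change of 0.24 (adjusted p = 0.0476, edgeR), a call lost in 9 of 15 alternative settings (highest adjusted p 0.184). Gata3 had at most 9 counts and Gata1 at most 1 count in any library.

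Partners of these factors were on a fixed list of 13 genes, of which 10 were tested, 3 were higher and 5 lower in KO (median log2 change -0.12). This and every later list count is to be read beside the share over all tested genes, 27.8% higher and 27.8% lower. Zfpm1 (FOG1), a cofactor that binds GATA proteins, fell from 46.1 ± 2.55 to 17.2 ± 3.25 CPM, with a log2 change of -1.42 (SE 0.12; adjusted p = 6.54e-06, edgeR). Its relative Zfpm2 (FOG2), the GATA4 cofactor of the developing gonad and heart, was at 120 ± 5.12 CPM in KO against 112 ± 2.38 CPM in WT libraries and was not called (adjusted p = 0.147). Basp1, which encodes a protein that turns WT1 from activator to repressor, changed by -1.16 and Pawr, a WT1-binding protein gene, by -0.41 on the log2 scale. Ssbp2, which encodes a partner of LIM-domain complexes, fell by 0.63 on the log2 scale. The 3 higher genes of the list, named after their values were seen, were Ldb1, Ssbp4 and Ssbp3. Their log2 changes were 0.39, 0.38 and 0.15 (adjusted p = 4.58e-04, 0.00767 and 0.0492, edgeR). The call of Ssbp3 was lost in several settings (highest adjusted p 0.175).

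Nr2f2 encodes COUP-TFII, an orphan nuclear receptor of mesenchyme and mesothelium, and lies on chromosome 7 (70351944 to 70366735, minus strand; ENSMUSG00000030551). It was at 52.3, 49.9 and 50.1 CPM in KO against 47.4, 43.7 and 48.5 CPM in WT libraries. The KO values were all above the WT values by a small margin, and the log2 change of 0.13 (SE 0.06) missed the threshold (adjusted p = 0.103, edgeR). It passed with upper-quartile scaling (0.18, adjusted p = 0.0325) and with library totals (0.25, adjusted p = 0.00662). Nr2f1, the closest relative of Nr2f2, rose from 2.40 ± 0.250 to 8.15 ± 0.228 CPM, with a log2 change of 1.76 (SE 0.13; adjusted p = 2.34e-06, edgeR). Per exon length, Nr2f1 was at 26.2%, 27.0% and 28.4% of the level of Nr2f2 in KO libraries and at 7.67%, 9.38% and 9.24% in WT libraries. The third member, Nr2f6, was at 20.1 ± 0.393 CPM in KO against 18.8 ± 0.519 CPM in WT libraries and was not called (adjusted p = 0.252).

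Lhx9, a LIM homeobox gene needed for the gonad to form, lies on chromosome 1 (138825186 to 138848577, minus strand; ENSMUSG00000019230) and was barely detected. It had 2, 3 and 3 counts in KO against 25, 19 and 32 counts in WT libraries, and no KO library was above the floor of 3 counts. The 8 KO counts against 76 WT counts gave a ratio of 10.02 (95% counting interval 4.83 to 24.0) of WT over KO, with a fitted log2 change of -3.26 (SE 0.42; adjusted p = 8.36e-05, edgeR). At 0.0731 FPKM in WT libraries it ranked 15535th of the 16033 tested genes, so the change concerns a trace transcript.

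Among 5 other tested LIM homeobox genes, 1 was higher and 1 lower in KO, beside 27.8% each way over all tested genes. Lhx1, which the Mullerian duct epithelium and the kidney require, was at 45.2, 36.6 and 51.8 CPM in KO against 11.1, 9.59 and 14.8 CPM in WT libraries, and the log2 change was 1.91 (SE 0.17; adjusted p = 2.60e-05, edgeR). Isl1 had 2 counts in KO libraries, both in replicate 2, and 152 in WT libraries, a ratio of 80.1 (21.8 to 668). Its fitted log2 change was -6.07 (adjusted p = 1.49e-05, edgeR) and -8.67 without KO replicate 2. As with Lhx9, Isl1 passed the filter through its WT counts alone, so a fall was bound to appear in it. Lhx6 and Isl2 were present in both genotypes and not called, and Lhx8, Lmx1a and Lmx1b had 0 counts in all 6 libraries.

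Emx2, a homeobox gene without which the urogenital tract does not form, lies on chromosome 19 (59458372 to 59465357, plus strand; ENSMUSG00000043969). It had 0 counts in all 3 KO libraries against 1, 0 and 0 counts in WT, so it was not detected above the floor in any of them and was not tested. Emx2os, which overlaps its exons by 264 bases on the opposite strand, had 0 counts throughout. Its relative Emx1 had 5, 6 and 2 counts in KO against 1, 0 and 0 counts in WT libraries, too few for the filter.

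**Figure D2:**
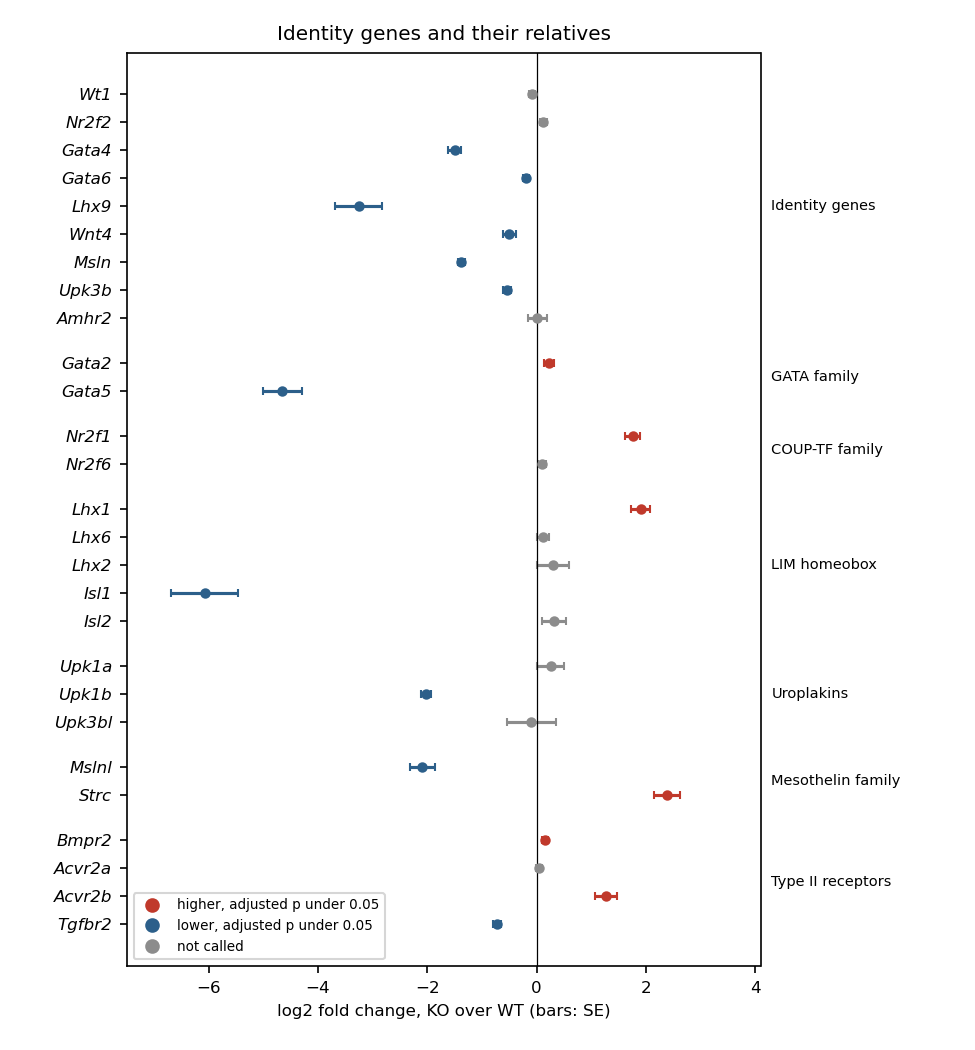
Log2 fold change of KO over WT (horizontal axis) with its SE for the 9 tested identity genes and the tested members of their families, coloured by call in edgeR's quasi-likelihood test. Gata5, Isl1 and Upk1b lie to the left and Lhx1, Nr2f1 and Strc to the right of 0, while Wt1, Nr2f2 and Amhr2 stay near it. Gata5, Isl1 and Lhx9 passed the filter through their WT counts alone, so a fall was bound to appear in them.

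Wnt4, the secreted ligand of the set, lies on chromosome 4 (137277489 to 137299726, plus strand; ENSMUSG00000036856). It was at 4.84, 4.299 and 4.98 CPM in KO against 6.41, 6.76 and 6.75 CPM in WT libraries. All KO libraries were lower, and the log2 change was -0.50 (SE 0.12; adjusted p = 0.00474, edgeR). R-spondin 1 (Rspo1), which acts with WNT4 in ovarian development by stabilising WNT receptors, rose from 14.2 ± 1.72 to 27.3 ± 4.60 CPM, with a log2 change of 0.94 (SE 0.13; adjusted p = 1.53e-04, edgeR). Inside each library Wnt4 was at 8.03%, 8.87% and 7.29% of the level of Rspo1 per exon length in KO against 23.2%, 22.9% and 19.4% in WT libraries.

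Genes that receive and pass on these WNT signals were counted on a list of 18, of which 14 were tested, 7 were higher and 5 lower (median log2 change 0.14), or 7 and 3 with library totals. Of all tested genes, 27.8% were higher and 27.8% lower. The R-spondin receptor gene Lgr4 rose from 34.5 ± 1.23 to 70.4 ± 8.60 CPM (log2 change 1.03), and Lef1, a factor that carries beta-catenin to DNA, from 0.306 ± 0.128 to 1.02 ± 0.329 CPM (1.70). Axin2, a common target of this signal and a brake on it, fell from 2.47 ± 0.355 to 0.568 ± 0.211 CPM (-2.10). These 3 changes passed an adjusted p of 0.05 in edgeR, so members of 1 list moved in opposite directions. Lgr5, an R-spondin receptor of the ovarian surface, had at most 3 counts in any library.

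Amhr2, the receptor of anti-Mullerian hormone, is transcribed in Mullerian mesenchyme, ovarian surface and granulosa cells, and its locus is widely used to drive Cre in those tissues of the mouse. It lies on chromosome 15 (102445367 to 102454633, plus strand; ENSMUSG00000023047). Counts were low, at 106, 102 and 141 in KO against 101, 107 and 120 in WT libraries. The corresponding levels of 3.03, 2.51 and 3.64 CPM and of 2.89, 3.16 and 3.02 CPM overlapped, with the KO libraries on both sides of WT. The log2 change of 0.02 (SE 0.17; adjusted p = 0.946, edgeR) was smaller than its error and took either sign over the settings, from -0.13 to 0.14. The hormone itself (Amh) was at 0.697 ± 0.148 CPM in KO against 0.943 ± 0.431 CPM in WT libraries and was not called (adjusted p = 0.309).

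Of 14 genes of AMH signalling, all tested, 3 were higher and 6 lower (median log2 change -0.17), or 3 and 3 with library totals. The share over all tested genes was 27.8% each way. Smad1, 1 of the signal-carrying SMADs, was at 2.75, 1.92 and 1.47 CPM in KO against 9.01, 9.24 and 8.89 CPM in WT libraries, and the log2 change was -2.15 (SE 0.19; adjusted p = 6.18e-06, edgeR). Smad5, which does the same work, was far more abundant, at 73.3 ± 2.86 CPM in KO against 86.0 ± 4.71 CPM in WT libraries (log2 change -0.23; adjusted p = 0.00636, edgeR, and 0.133 with library totals). The target gene Id2 fell from 24.7 ± 0.510 to 10.6 ± 1.197 CPM (-1.22), whereas the type I receptor gene Bmpr1b and the shared mediator gene Smad4 each rose by 0.37 on the log2 scale. Among type II receptors, the family to which AMHR2 belongs, Acvr2b rose by 1.27 and Tgfbr2 fell by 0.72 on the log2 scale, both called, and Acvr2a was not called.

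Msln encodes mesothelin, an adhesion protein of mesothelium that binds the mucin MUC16 and is abundant in ovarian carcinoma. It lies on chromosome 17 (25748613 to 25754378, minus strand; ENSMUSG00000063011) and was at 99.8, 110 and 114 CPM in KO against 292, 281 and 269 CPM in WT libraries. The genotypes were far apart relative to their spread, with a log2 change of -1.38 (SE 0.06; adjusted p = 6.03e-08, edgeR). Mslnl, a mesothelin-like gene that ends 282 bases from the end of Msln on the opposite strand, fell from 4.65 ± 0.496 to 1.08 ± 0.382 CPM (log2 change -2.09; adjusted p = 2.91e-05, edgeR). Strc (stereocilin), a further relative known from the inner ear, rose from 18.3 ± 2.39 to 96.0 ± 27.6 CPM (2.39; adjusted p = 2.13e-04, edgeR). Muc16, named after its value was seen, was at 414 ± 76.4 CPM in KO against 301 ± 18.6 CPM in WT libraries, and the log2 change was 0.46 (adjusted p = 0.0103, edgeR), and leaving out KO replicate 3 ended the call (adjusted p = 0.0536, in a range of 5.05e-09 to 0.0536).

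Upk3b, a uroplakin that marks mesothelium as well as bladder lining, lies on chromosome 5 (136038496 to 136046487, plus strand; ENSMUSG00000042985). It was at 1447, 1447 and 1667 CPM in KO against 2183, 2149 and 2307 CPM in WT libraries. All KO libraries were lower, although it stayed among the most abundant transcripts, and the log2 change was -0.54 (SE 0.07; adjusted p = 6.41e-05, edgeR). Upk1b, a uroplakin of the tetraspanin kind, was at 92.2, 113 and 87.5 CPM in KO against 418, 403 and 377 CPM in WT libraries, and the log2 change was -2.03 (SE 0.09; adjusted p = 1.43e-07, edgeR). Upk1a and Upk3bl were tested and not called (log2 change 0.26 and -0.10; adjusted p = 0.402 and 0.867, edgeR). The bladder uroplakin genes Upk2 and Upk3a had at most 1 count in any library.

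Msln fell further than Upk3b within each library. Per exon length Msln was at 7.95%, 8.72% and 7.89% of the level of Upk3b in KO libraries and at 15.4%, 15.1% and 13.4% in WT libraries, with no overlap. Upk1b was at 10.8%, 13.2% and 8.87% of Upk3b in KO against 32.4%, 31.7% and 27.6% in WT libraries.

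**Figure D3:**
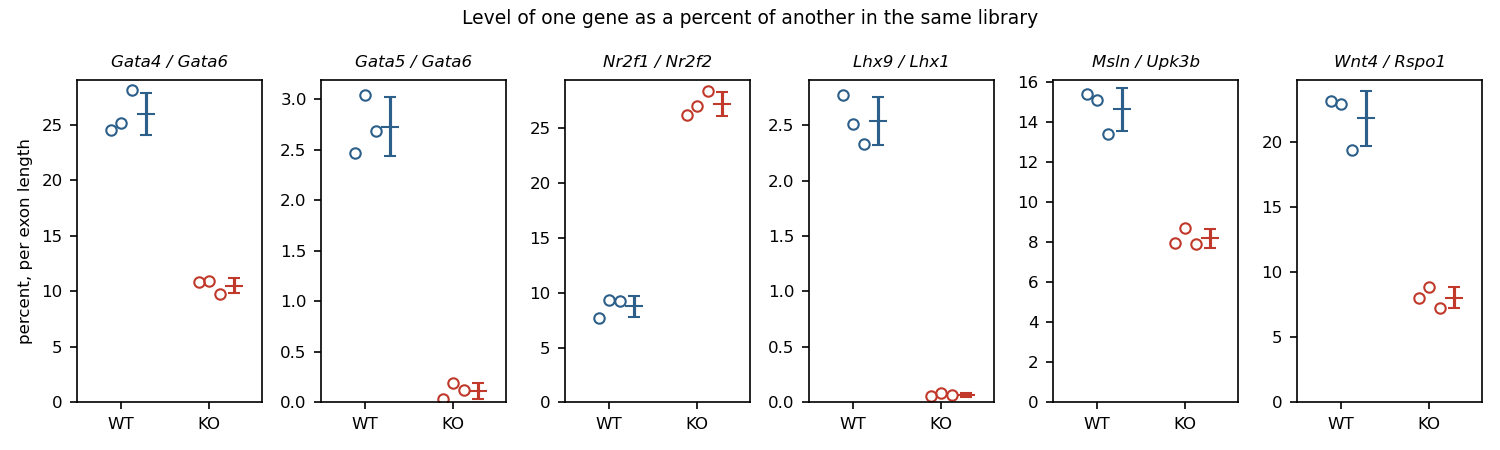
The level per exon length of 1 gene as a percent of another in the same library (vertical axes, from 0), with open circles for the 3 WT and 3 KO libraries and bars for mean and SD. In the 6 pairs drawn, Nr2f1 against Nr2f2 was higher and the others lower in KO. Gata5 and Lhx9 passed the filter through their WT counts alone, so a lower ratio was bound to appear in their pairs. Of 11 pairs computed, Wt1 against Gata6 and Amh against Amhr2 overlapped between genotypes.

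The 10 genes lie on 10 different chromosomes, so none shares its neighbourhood with another. Around Upk3b, 42 other genes were tested within 1 Mb, of which 6 were higher and 20 lower, with a median log2 change of -0.20. Of all tested genes, 27.8% were higher and 27.8% lower. The median was -0.15 over the 1109 other tested genes of chromosome 5, and the part of this regional shift in the change of Upk3b was not tested. Around Msln, 20 of 68 genes were higher and 23 lower (median -0.04), and around Gata4, 5 of 12 were higher and 5 lower (median -0.12).

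The wider list of mesothelial and ovarian surface markers held 23 genes, 7 of them among the identity genes. Of its 20 tested genes, 4 were higher and 11 lower in KO, with a median log2 change of -0.37, beside 27.8% each way over all tested genes. Without the 7 identity genes, 4 of the other 13 tested genes were higher and 6 lower, with a median log2 change of -0.11. The keratin gene Krt7 fell from 299 ± 25.9 to 81.3 ± 11.5 CPM (log2 change -1.88), podocalyxin (Podxl), a surface sialomucin, from 2957 ± 51.7 to 1573 ± 39.4 CPM (-0.91) and Krt8 from 480 ± 39.4 to 283 ± 33.4 CPM (-0.76), all called in edgeR. In the other direction, and named after their values were seen, the keratin gene Krt19 rose from 354 ± 20.6 to 481 ± 41.3 CPM (0.44; adjusted p = 3.06e-04, edgeR). Bnc1, which encodes the zinc finger factor basonuclin 1, rose from 286 ± 23.0 to 396 ± 14.1 CPM (0.47), and Aldh1a2, an enzyme that makes retinoic acid in mesothelium, from 686 ± 14.4 to 905 ± 21.7 CPM (0.40). Calb2 (calretinin), a diagnostic mesothelial marker in human pathology, had 0 counts in all 6 libraries, and Tcf21 had at most 1.

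Many marks of the Mullerian duct and oviduct were missing. Of 21 genes on that list, 4 had 0 counts in all libraries (Wnt7a, Hoxa11, Sox17 and Pgr), and 10 including these never exceeded 3 counts in any library. Only 6 passed the filter, of which 2 were higher (Lhx1 and Wnt5a) and 1 lower (the identity gene Wnt4). The share over all tested genes was 27.8% each way. Wnt5a changed by 0.27 on the log2 scale (adjusted p = 0.0119, edgeR), a call lost without WT replicate 1 or WT replicate 3 (highest adjusted p 0.0544). Pax8, the usual marker of oviduct epithelium and of serous carcinoma, and named after its values were seen, had 1, 2 and 0 counts in KO against 19, 4 and 11 counts in WT libraries. The 3 KO counts against 34 WT counts gave a ratio of 11.9 (95% counting interval 3.76 to 60.8), with no test since the gene was under the filter. This and the other counting intervals pool the libraries of a genotype and leave out the spread between them. Pax2 had 1 count in a single library, and Ovgp1, the oviductal glycoprotein gene, was at 3.92 ± 0.424 CPM in KO against 3.53 ± 0.912 CPM in WT libraries and was not called (adjusted p = 0.509).

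On the list of 19 genes of the gonadal primordium, 15 were tested, 4 were higher and 5 lower (median 0.02), or 7 and 4 with upper-quartile scaling or library totals. The list includes 7 identity genes, and of its other 9 tested genes 4 were higher and 1 lower (median 0.09). Over all tested genes the share was 27.8% each way. Besides Rspo1, the insulin receptor gene Insr rose by 0.85 and Cbx2, a Polycomb gene of gonad development, by 0.41 on the log2 scale, and Igf1r changed by -0.52. Nr5a1, which encodes the steroidogenic factor SF-1 and is named after its values were seen, had at most 1 count in any library, and Nr0b1 had 0.

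Some defining genes of the ovary's hormone-producing cells were likewise absent, whereas 13 of 18 granulosa and 5 of 9 theca genes exceeded 3 counts in some library. Among granulosa markers, Fshr and Cyp19a1 had 0 counts in all libraries, and Foxl2, named after its values were seen, had at most 1. Of 11 tested genes of that list, 2 were higher and 6 lower, including the activin subunit genes Inhba (log2 change -2.77, or -3.67 without KO replicate 2) and Inhbb (-1.27) and the gap junction gene Gja1 (-1.67). Without its 3 identity genes, 2 of the other 8 tested genes were higher and 4 lower, beside 27.8% each way over all tested genes. The 2 higher were Rspo1 and, named after its value was seen, the inhibin alpha gene Inha (log2 change 0.82; adjusted p = 0.00685, edgeR). Lhcgr and Hsd3b1 of the theca list had 0 counts throughout, while Star, the cholesterol carrier of steroid-making cells, was at 26.4 ± 4.69 CPM in KO against 20.6 ± 1.33 CPM in WT libraries (log2 change 0.36; adjusted p = 0.0211, edgeR). That call of Star was lost without KO replicate 3, WT replicate 1 or WT replicate 2, with an adjusted p of up to 0.0897. Cyp17a1, also of the theca list and named after its value was seen, was tested and not called (log2 change -0.19; adjusted p = 0.747, edgeR). Of the Sertoli genes, Sox8 fell by 1.80 on the log2 scale and the other 3 tested genes were not called. None of the 10 oocyte and germ cell genes passed the filter.

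**Figure D4:**
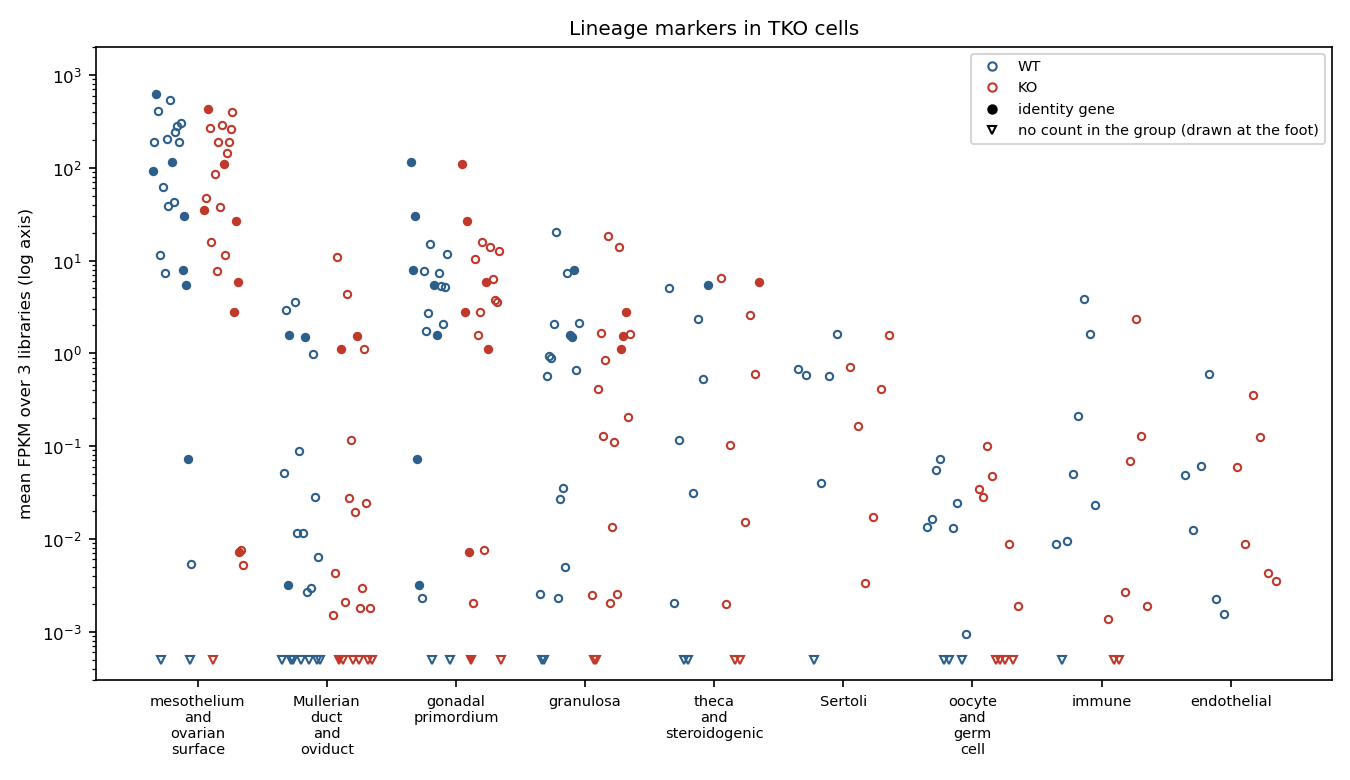
Mean FPKM over 3 libraries (vertical log axis) of each gene on 9 lineage lists, WT beside KO, with filled circles for identity genes and triangles at the foot for genes with no count in that genotype. Mesothelial markers reach the highest levels, and markers of the Mullerian duct, oocytes, immune and endothelial cells mostly lie under 1 FPKM.

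Summed levels of immune, endothelial, stromal and epithelial markers were lower in every KO library than in any WT library, as was the granulosa sum, with no test of the sums. The mesothelial sum was lower too, at 8663 to 9065 CPM in KO against 11667 to 12108 CPM in WT. It includes Podxl, at 1573 ± 39.4 CPM in KO against 2957 ± 51.7 CPM in WT, and Upk3b, at 1520 ± 127 against 2213 ± 83.1 CPM. On the same list, 4 genes were called higher. The theca sum was higher in every KO library, at 110 to 122 CPM against 99.7 to 109 CPM in WT. So was the Mullerian sum, at 78.9 to 103 CPM in KO against 52.3 to 55.8 CPM in WT. Of that sum, Lhx1 alone made up 44.5 ± 7.62 CPM in KO and 11.8 ± 2.69 CPM in WT. The Sertoli and oocyte sums overlapped. Within several of these lists single genes moved in opposite directions.

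The 8 immune markers summed to 3.34 to 3.84 CPM in KO against 5.54 to 12.4 CPM in WT libraries. Cd3e was at 0 throughout and Ptprc had at most 2 counts in KO against 9 in WT libraries. Lyz2, a macrophage gene, had 1, 13 and 6 counts in KO against 61, 146 and 10 counts in WT libraries, and its call (adjusted p = 0.0355, edgeR) was lost in 6 settings (highest adjusted p 0.197). The macrophage genes Csf1r and Cd68 fell by 1.57 and by 0.68 on the log2 scale, both called. The 6 endothelial markers summed to 2.73 to 3.79 CPM in KO against 5.77 to 6.26 CPM in WT libraries, with Cdh5 at no more than 4 counts. Of the endothelial receptor genes, Tek rose from 0.287 ± 0.0492 to 1.68 ± 0.528 CPM (log2 change 2.54) while Kdr fell from 5.35 ± 0.343 to 1.13 ± 0.0826 CPM (-2.23), both called.

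The 7 stromal markers summed to 461 to 501 CPM in KO against 620 to 659 CPM in WT libraries. Most of this was Dcn (decorin), at 465 ± 24.2 CPM in KO against 496 ± 18.6 CPM in WT libraries and not called (adjusted p = 0.181, edgeR). The collagen gene Col1a1 fell from 134 ± 5.48 to 10.3 ± 1.85 CPM (log2 change -3.70), Col1a2 had no more than 2 counts, and the fibroblast surface gene Thy1 had 0 counts in KO against 69, 92 and 85 counts in WT libraries. Pdgfrb, a receptor of pericytes and fibroblasts, rose from 1.08 ± 0.194 to 4.75 ± 1.42 CPM (2.14; adjusted p = 3.68e-05, edgeR). The 10 epithelial markers summed to 1129 to 1170 CPM in KO against 1474 to 1697 CPM in WT libraries, nearly all of it keratins. Krt18 fell by 0.55 on the log2 scale, as Krt7 and Krt8 fell, whereas Krt19 rose. The tight junction gene Cldn3 fell from 54.3 ± 6.49 to 21.3 ± 2.83 CPM (-1.35), and Cdh1 was under 1 CPM in every library. The part of such differences in the values of the identity genes was not tested.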

How the data were processed

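RNA sequencing was carried out on 3 KO and 3 WT libraries, prepared from column-purified total RNA with the NEBNext Ultra II RNA kit, per the labels' protocols. The authors deposited whole-number read counts for each Ensembl gene, not normalized. STAR 2.5.2b, Subread 1.5.2, Trimmomatic 0.36, bcl2fastq 2.17 and DESeq2 are named, with the build GRCm38 (mm10), per the submitters' processing notes. For the counting, a strand setting was not given in the sources used here, so reads of overlapping genes can be misassigned. Exons of Nr2f2, Gata6 and Emx2 overlap those of B130024G19Rik (643 bases), 1010001N08Rik (93 bases) and Emx2os. B130024G19Rik averaged 0.211 (KO) and 0.179 (WT) CPM and 1010001N08Rik 2.27 and 2.05 CPM, all far below the gene each overlaps.

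Of 49315 gene IDs, 49056 matched GENCODE M21. Genes were filtered with filterByExpr (minimum count 10; 16033 remained), scaled by TMM and tested with edgeR 4.0.16 (quasi-likelihood, robust, genotype only; R 4.3.3), with Benjamini-Hochberg adjustment and a threshold of 0.05. The SE is the log2 change divided by the square root of F. Alternatives included DESeq2 1.42.0 and limma 3.58.1 (voom). FPKM used the length of all annotated exons merged. The identity genes, the 21 other lists and the tests were chosen with earlier results of these data known. All identity genes are named. From each other list, the names could include up to 4 called genes (1 CPM or more in the higher genotype) in order of absolute log2 change and up to 4 genes without counts, as well as any family member. Outside this rule, and chosen after their values were seen, are Zfpm2, Smad5, Amh, Inha, Lgr5, Muc16, Krt19, Bnc1, Aldh1a2, Tcf21, Pax8, Pax2, Ovgp1, Nr5a1, Foxl2, Ptprc, Cdh5, Dcn, Col1a2 and Cdh1. The same holds for Cyp17a1, Ldb1, Ssbp3 and Ssbp4.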

Additional observations from a re-analysis of the deposited data

How the results depend on the processing

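The number of identity genes called stayed at 5 or 6 in all 15 alternative settings, and all 5 or 6 were lower in KO except that upper-quartile scaling and library totals gave 1 higher (Nr2f2) and 5 lower. Gata4, Msln, Upk3b and Wnt4 kept their direction and their call in 15 of 15 settings, and Lhx9 in the 14 that tested it. Their log2 changes ran from -1.57 to -1.38, from -1.42 to -1.26, from -0.61 to -0.42, from -0.54 to -0.38 and from -3.39 to -3.10. Lhx9 passed the main filter through its WT counts alone, so its fall was bound to appear and its steady call is no support. In the main fit without Lhx9, 5 of 8 identity genes were called lower. The sign of Wt1 turned to 0.0332 with library totals, and that of Amhr2 to -0.0025 in limma voom, to -0.13 without KO replicate 3 and to -0.0183 without WT replicate 1, in a range of -0.1292 to 0.1426 over libraries left out; neither gene was called in any setting. The cause was not tested.

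Over all genes, 7587 to 10002 were called when a library was left out. Library totals moved the median log2 change of all genes from 0.01 to 0.13 and the share of calls that were higher from 50.01% to 63.7% (56.0% with upper quartiles). Same-numbered KO and WT libraries did not deviate together (correlations of -0.0542, 0.0514 and 0.0270), so the numbers were not taken as pairs. With the replicate number as a block, 6 identity genes and 8878 genes in all were called. Depth limits what can be said of Emx2, Lhx9 and Pax8, where single libraries held 0 to 32 counts.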
